A study of Mus musculus with 6 samples.

Results

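The anti-apoptotic members of the BCL2 family were examined in mouse liver after LPS/GalN or LPS. The rows were found by their gene description: B-cell leukemia/lymphoma 2 (Bcl2), Bcl2-like 1 (Bcl2l1, also written bcl-x), Bcl2-like 2 (Bcl2l2), myeloid cell leukemia sequence 1 (Mcl1), and the Bcl2-related protein A1 paralogs Bcl2a1a, Bcl2a1b, Bcl2a1c and Bcl2a1d. This gave 16 target rows for 8 genes, out of 44170 target rows on the array. The tested livers came from 3 mice given 0.01 µg LPS together with 20 mg GalN (galactosamine), and the others from 3 mice given 0.01 µg LPS alone, all taken at 2.5 h. All 6 were wild-type C57 BL/6 males aged 9 to 10 weeks, 1 mouse per NimbleGen single-colour array and each from a separate treatment. Both groups had received LPS, so a difference below is one between 2 LPS-treated livers, and untreated liver was not analysed here.

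LPS (lipopolysaccharide) is a bacterial cell wall component that makes liver macrophages release TNF. GalN is an amino sugar taken up by hepatocytes, where it traps uridine nucleotides and blocks RNA synthesis, and livers exposed to both agents become sensitive to killing by TNF. BCL2, BCL-xL (from Bcl2l1), BCL-W (from Bcl2l2), MCL1 and A1 proteins hold BAX and BAK in check and bind BH3-only proteins, which keeps cytochrome c inside mitochondria. In hepatocytes BCL-xL and MCL1 are the members known to be needed for survival, and TNF signalling engages the mitochondrial pathway through cleavage of BID. Bcl2l1 and the A1 genes are known targets of NF-kB, and MCL1 is a short-lived protein made from a short-lived mRNA.

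In LPS/GalN livers 4 of the 5 Bcl2l1 rows were lower and 1 of the 2 Bcl2 rows was higher, and no row of Bcl2l2, Mcl1 or the A1 paralogs passed the test. The test was limma over all 44170 rows with an adjusted p under 0.05, and the values are log2 of the deposited RMA intensity. Over all rows 0.654% were called higher and 3.13% lower in LPS/GalN, against 1 and 4 of the 16 family rows (6.25% and 25%). The 4 lower rows are all of Bcl2l1 and share their lowest position, so they do not count as 4 separate members. By the brightest row of each gene, 1 of the 8 genes was higher and 1 lower, against 0.652% and 3.07% over all features counted that way. The 3 LPS/GalN arrays lay wholly above the 3 LPS arrays for 2 family rows and wholly below them for 9, and 5 rows overlapped. Of the 9 rows, 5 were of Bcl2l1, 3 of Mcl1 and 1 of Bcl2a1d. Such separation was found for 12.9% of all rows upward and 11.1% downward. The median difference of the 16 rows was -0.70 on the log2 scale, beside 0.05 over all rows. All 16 rows were brighter than the random-probe row, the background of an array, on all 6 arrays. Among the rows with that property, 0.998% were called higher and 5.24% lower, and 17.9% and 14.9% were separated upward and downward. At an unadjusted limma p under 0.05 the family had 2 rows higher and 9 lower, against 8.39% and 9.13% of all rows.

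**Figure D1:**
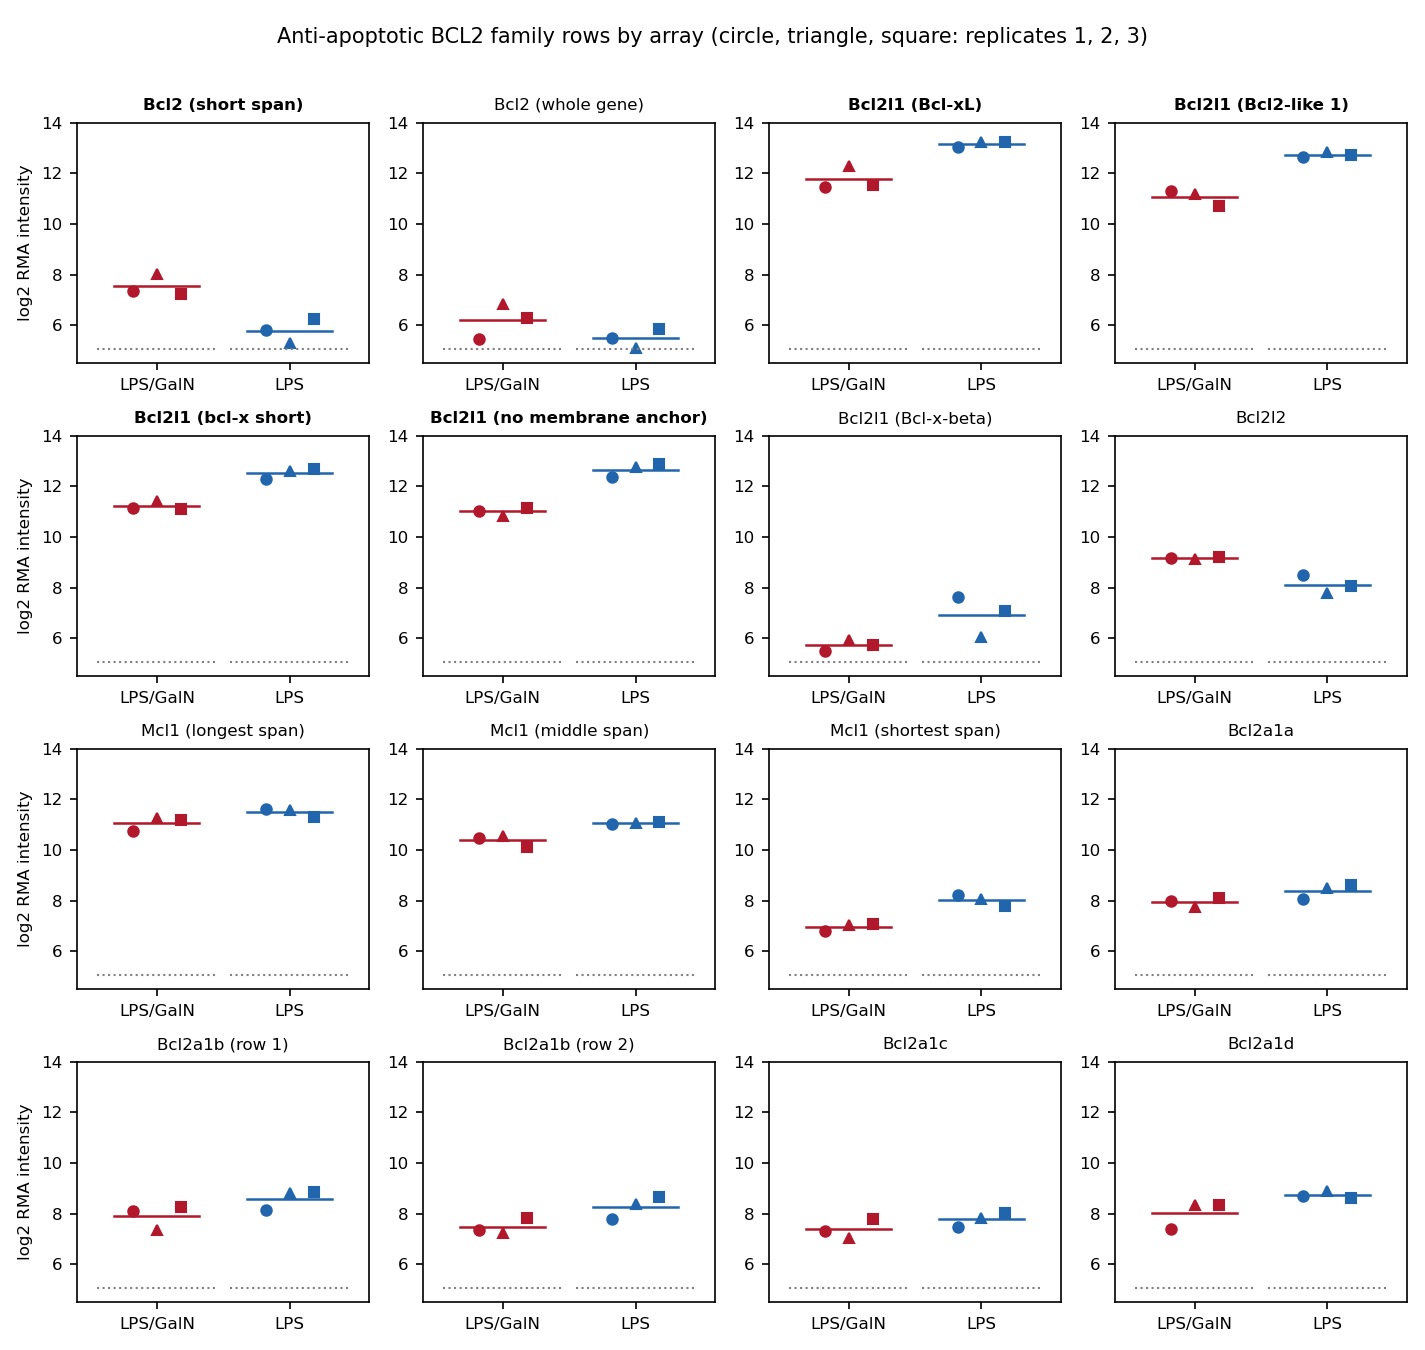
Log2 RMA intensity of the 16 family rows on each array, LPS/GalN left of LPS. Symbols are replicates, solid lines are group means, the dotted line is the mean log2 intensity of the random-probe row, and bold titles mark rows past the test. In the Bcl2l1 panels every LPS/GalN array sits below every LPS array, and in the A1 panels other than Bcl2a1d the groups overlap.

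RNA of other tissues was present on some arrays and is given here before the results it touches. The summed intensity of 12 measured T cell and thymocyte markers was 879, 19815 and 10758 on LPS/GalN arrays 1, 2 and 3, against 841, 644 and 1161 on LPS arrays 1, 2 and 3. The summed intensity of 11 measured intestine markers was 2761, 2417 and 2164 on the LPS/GalN arrays, against 30894, 34511 and 3574 on the LPS arrays. LPS/GalN array 1 and LPS array 3 thus lacked the high sums of either list. Within its own group, LPS array 3 had the highest T cell sum and LPS/GalN array 1 the highest intestine sum. The median log2 values of LPS/GalN array 1 and LPS array 3 were 5.79 and 6.21 for the T cell list. For the intestine list they were 5.46 and 6.05, beside backgrounds of 5.12 and 5.03. Some listed genes were well above background on both, such as Fabp2 at 10.26 and 10.56. The difference between these 2 arrays is given below for each family row, as a value with no test. In liver cell types the sum of 13 Kupffer cell markers ran 24431 to 27094 in LPS/GalN against 11956 to 17685 in LPS, with 0 of 13 past the limma test and 10 higher at an unadjusted p under 0.05. The sum of 11 endothelial markers ran 14743 to 17500 in LPS/GalN against 7368 to 10961 in LPS. Of the 11, 3 passed the limma test as higher, namely Pecam1, Tie1 and Egfl7, and 0 as lower. At an unadjusted p under 0.05, 6 were higher and 0 lower. Cdh5 and Erg differed by -0.03 and -0.07, and Lyve1 by 0.28. Of 12 hepatocyte markers 0 passed limma's test, 0 also at an unadjusted p under 0.05, and their median difference was -0.06. The sum of 8 B cell markers ran 332 to 473 in LPS/GalN against 347 to 363 in LPS. In whole liver, fewer cells of a type and less RNA per cell cannot be told apart.

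Bcl2l1, whose long splice form encodes BCL-xL, was the member with the most rows and the most calls. Its 5 rows are named in the files for different mRNAs of the locus on chromosome 2 of mm9, but the positions of their probes are not given, so a row cannot be assigned to a splice form. The row described as bcl-x with the transmembrane part deleted had 11.03, 10.84 and 11.14 in LPS/GalN livers and 12.35, 12.74 and 12.86 in LPS livers. All LPS/GalN values lay more than 1 log2 unit below the lowest LPS value. The difference was -1.64 ± 0.24 (SE, n = 3 each), a level 3.13 times as high in LPS as in LPS/GalN, with a limma adjusted p of 0.00744.

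The row named Bcl2-like 1 had 11.30, 11.20 and 10.70 in LPS/GalN livers and 12.62, 12.85 and 12.71 in LPS livers, a difference of -1.66 ± 0.24 with a limma adjusted p of 0.00814. The row named for Bcl-xL had 11.48, 12.28 and 11.54 in LPS/GalN livers and 13.05, 13.23 and 13.23 in LPS livers, a difference of -1.40 ± 0.27 with a limma adjusted p of 0.0300. Its LPS/GalN array 2 lay nearest to the LPS group. The row named for the short form, which encodes a death-promoting protein, had 11.15, 11.41 and 11.10 in LPS/GalN livers and 12.28, 12.60 and 12.70 in LPS livers. Its difference was -1.31 ± 0.23 with a limma adjusted p of 0.0189. These 4 rows share their lowest position, 152606403, and cover 49324 to 49966 bases, so they are not independent measures of the gene.

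The remaining Bcl2l1 row, described as a thymus Bcl-x-beta mRNA, covers 2507 bases at positions 152653862 to 152656368. It was far dimmer, with 5.51, 5.92 and 5.75 in LPS/GalN livers and 7.63, 6.05 and 7.08 in LPS livers. The groups did not overlap, though LPS array 2 came close to the LPS/GalN values, and the difference of -1.19 ± 0.39 had a limma adjusted p of 0.162. Leaving out LPS array 2 brought it to -1.63 with a limma adjusted p of 0.0438, within a range of 0.0438 to 0.429 over its 14 alternatives.

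Leaving out any 1 array kept the calls of the transmembrane-deleted and the Bcl2-like 1 rows in 6 of 6 fits, that of the short-form row in 3 and that of the Bcl-xL row in 1. The LPS/GalN array 1 minus LPS array 3 difference of the 5 rows ran from -1.82 to -1.40, 1 array against 1 with no test. Without LPS arrays 1 and 2 there were 0 limma calls in the family and 0 over all rows in either direction, beside 1223 rows higher and 2817 lower at an unadjusted p under 0.05. Without LPS/GalN arrays 2 and 3 the family had 0 calls, and over all rows 350 were lower and 26 higher.

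Among 10 promoter windows of the family in RefSeq (build GRCm38.p6, 250 bases before each annotated start), a match to the NF-kB consensus was found in 1, a window of Bcl2l1. Over all 32851 such windows 7.25% held a match on either strand. The other 2 Bcl2l1 windows held none. The match is shown because it is the only one in the family's windows; it lies at chr2:152830938-152830967 on the minus strand, with the matching bases in capitals.
Bcl2l1: tgtttgtgGGGGGTCTCCagcatacgcctc
No window of the family held the STAT motif TTCNNNGAA, which 7.02% of all windows hold. A match describes these letters only, and binding was not measured.

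Bcl2, the founding member and a guard of lymphocyte survival that is scarce in hepatocytes, had 2 rows on chromosome 1. The row covering 1016 bases, positions 108608741 to 108609756 of mm9, had 7.36, 8.05 and 7.24 in LPS/GalN livers and 5.81, 5.31 and 6.26 in LPS livers. All LPS/GalN arrays were above all LPS arrays by at least 0.98, and LPS/GalN array 2 was the highest. The difference was 1.76 ± 0.33 (SE, n = 3 each), or 3.38-fold, with a limma adjusted p of 0.0255. The LPS mean stood only 0.73 above the mean background, so the fold is that of a row near the floor in LPS.

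The other Bcl2 row covers 172205 bases, nearly the whole gene, and had 5.46, 6.85 and 6.29 in LPS/GalN livers and 5.49, 5.13 and 5.86 in LPS livers. The groups overlapped, the difference was 0.71 ± 0.38, and the limma adjusted p was 0.385; it was 1.08 without LPS/GalN array 1 and 0.39 without LPS/GalN array 2. The LPS mean of this row stood only 0.43 above the mean background and its LPS/GalN mean 1.14 above. Its differences are thus those of a row near the floor. LPS/GalN arrays 2 and 3, which carried the T cell markers, were its highest arrays. Between LPS/GalN array 1 and LPS array 3 the difference was -0.40. For the short-span row the same pair of arrays differed by 1.10, and its value on LPS/GalN array 1, where T cell markers were low, exceeded every LPS array. The call of the short-span row was lost without LPS array 1, LPS array 2, LPS/GalN array 2 or LPS/GalN array 3, with differences of 1.51 to 1.99 and limma adjusted p of 0.0245 to 0.0955 over the 6 fits that leave out 1 array. The part of T cell RNA in the Bcl2 rows was not tested.

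The Bcl2 promoter window held the core of the cyclic AMP response element, TGACG; Bcl2 is a known target of the factor CREB, which binds that element. The core was in 5 of the 10 family windows, against 17.8% of all windows, but 4 of the 5 belong to the A1 paralogs, whose sequences are near copies of each other. The Bcl2 match is printed as the only one outside those paralogs, and lies at chr1:106714380-106714409 of GRCm38.p6 on the minus strand, with the core in capitals.
Bcl2: ttgaatgaacggTGACGtacgtacaggaaa

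Bcl2l2, which encodes BCL-W and is best known for its role in sperm formation, had 1 row on chromosome 14, positions 55502633 to 55506921 of mm9. It had 9.15, 9.14 and 9.22 in LPS/GalN livers and 8.50, 7.80 and 8.06 in LPS livers. The LPS/GalN values were nearly level and all above the LPS values, which spread over a wider range. The difference was 1.05 ± 0.25 (SE, n = 3 each; 95% interval 0.48 to 1.62), with a limma adjusted p of 0.0613 that missed the threshold. It passed in 4 of 17 alternatives, where the limma adjusted p ran from 0.0152 to 0.386. Between LPS/GalN array 1 and LPS array 3 the difference was 1.09.

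**Figure D2:**
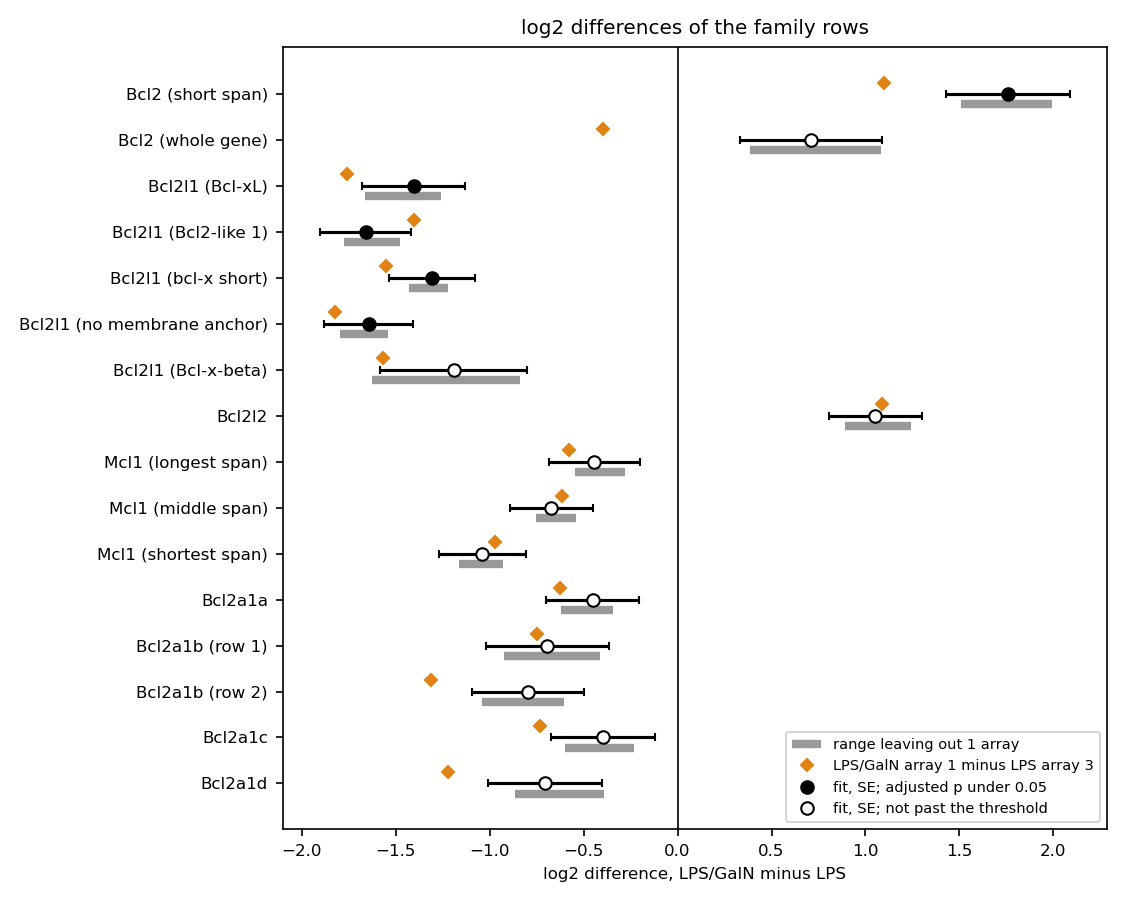
Log2 difference of each family row, LPS/GalN minus LPS, with its standard error. Grey bars give the range when 1 array is left out, and diamonds the difference between LPS/GalN array 1 and LPS array 3. The 5 Bcl2l1 rows lie between -1.66 and -1.19 with every grey bar below 0. The diamond of the whole-gene Bcl2 row, a row near background, falls on the other side of 0.

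Mcl1, an early-response gene of the family, had 3 rows on chromosome 3 that begin at nearly the same position (95462713 to 95462720 of mm9) and end at different ones; 0 of 3 passed limma's test and 2 were lower at an unadjusted p under 0.05. The row with the longest span, 4388 bases, had 10.73, 11.26 and 11.19 in LPS/GalN livers and 11.63, 11.58 and 11.31 in LPS livers. Its difference was -0.44 ± 0.24 with a limma adjusted p of 0.400, and it was -0.28 without LPS/GalN array 1. The row of 3141 bases had 10.49, 10.55 and 10.12 in LPS/GalN livers and 11.01, 11.06 and 11.10 in LPS livers, a difference of -0.67 ± 0.22 with a limma adjusted p of 0.163. It passed in 2 of 15 alternatives, where the limma adjusted p ran from 0.0194 to 0.646. Both sets of LPS/GalN values lay below the LPS values, by a narrow margin in the longest row.

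The Mcl1 row of 2226 bases was dimmer and differed most, with 6.80, 7.05 and 7.09 in LPS/GalN livers and 8.24, 8.05 and 7.77 in LPS livers. The difference of -1.04 ± 0.23 had a limma adjusted p of 0.0505, just outside the threshold, and it passed in 4 of 15 alternatives with limma adjusted p from 0.0134 to 0.583. All 3 rows therefore pointed the same way without a call. Between LPS/GalN array 1 and LPS array 3 they differed by -0.58, -0.62 and -0.97 in order of falling span.

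The A1 paralogs, made in white blood cells and endothelium in response to inflammatory signals, had 5 rows on chromosome 9. Of these 0 passed limma's test, and 2 were lower at an unadjusted p under 0.05. The Bcl2a1a row, named by its description, and both Bcl2a1b rows are placed at almost the same span, so position does not separate these rows. The Bcl2a1a row covers 8544 bases, beside RefSeq gene lengths of 5497 for Bcl2a1a and 8566 for Bcl2a1b. Its placement thus has nearly the length of Bcl2a1b and not that of Bcl2a1a. The paralogs are also close enough in sequence for a probe to read several of them. The Bcl2a1a row had 7.99, 7.74 and 8.09 in LPS/GalN livers and 8.05, 8.51 and 8.61 in LPS livers, overlapping groups with a difference of -0.45 ± 0.25 and a limma adjusted p of 0.397. The Bcl2a1b rows differed by -0.69 ± 0.33 and -0.80 ± 0.30, with limma adjusted p of 0.326 and 0.214, and the Bcl2a1c row of 445 bases by -0.40 ± 0.28 with 0.516. Their groups overlapped too.

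The Bcl2a1d row had 7.40, 8.33 and 8.35 in LPS/GalN livers and 8.69, 8.88 and 8.62 in LPS livers. Its groups did not overlap, LPS/GalN array 1 stood apart on the low side, and the difference of -0.71 ± 0.30 had a limma adjusted p of 0.280. Without LPS/GalN array 1 the difference was -0.39. Leaving out LPS/GalN array 2 brought the Bcl2a1b row of 8505 bases to -0.41 and Bcl2a1c to -0.23, and leaving out LPS/GalN array 3 brought Bcl2a1c to -0.60. LPS/GalN array 1 minus LPS array 3 ran from -1.31 to -0.63 over the 5 A1 rows. The sum of 11 neutrophil markers ran 1279 to 2285 in LPS/GalN against 3102 to 4392 in LPS, with a median difference of -0.44 over the list. Of the 11 markers only S100a8 and S100a9 were called lower, at -1.66 and -1.55, and 3 were lower at an unadjusted p under 0.05. Mmp8 differed by -1.75 with a limma adjusted p of 0.0566. Camp, Ngp, Cxcr2 and Csf3r differed by -0.75, -0.54, -0.44 and -0.15, and Ltf, Mpo, Elane and Itgam by -0.05, -0.07, 0.10 and 0.29. Mpo, Elane and Itgam lay between 4.69 and 5.62 on the arrays, near the backgrounds of 4.97 to 5.12, so their differences say little. S100a9 and S100a8 were the brightest neutrophil markers on every array and weigh most in the sum. The Kupffer cell, endothelial, T cell and B cell lists had median differences of 0.83, 0.93, 2.59 and 0.35. The part of RNA of neutrophils or of any of these other cells in the A1 rows was not tested.

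A stretch before the RefSeq start is shared by the 4 A1 paralogs, and it is shown because it shows how little the paralogs differ. Capitals mark 3 motifs read on both strands. The AP-1 motif is TGANTCA. The PU.1 core is GAGGAA, which on the other strand reads TTCCTC. The third is the cyclic AMP core named above. The stretches lie at chr9:88956792-88956908 on the plus strand for Bcl2a1a, chr9:89199101-89199217 plus for Bcl2a1b, chr9:114329897-114330013 plus for Bcl2a1c, and chr9:88731862-88731972 minus for Bcl2a1d, in GRCm38.p6.
Bcl2a1a: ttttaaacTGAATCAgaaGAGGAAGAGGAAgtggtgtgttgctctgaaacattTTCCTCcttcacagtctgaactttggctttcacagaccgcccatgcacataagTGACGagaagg
Bcl2a1b: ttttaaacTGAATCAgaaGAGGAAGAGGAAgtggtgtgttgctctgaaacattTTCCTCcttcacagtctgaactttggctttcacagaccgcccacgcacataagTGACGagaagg
Bcl2a1c: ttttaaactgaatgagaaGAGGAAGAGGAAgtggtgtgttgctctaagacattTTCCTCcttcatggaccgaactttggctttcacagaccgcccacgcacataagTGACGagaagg
Bcl2a1d: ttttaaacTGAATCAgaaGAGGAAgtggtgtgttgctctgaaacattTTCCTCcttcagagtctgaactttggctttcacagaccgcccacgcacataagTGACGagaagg
Bcl2a1a and Bcl2a1b were identical at 116 of 117 bases (99.1%), and the least alike pair, Bcl2a1c and Bcl2a1d, at 88.9% of aligned positions with gaps counted. These near copies are not independent, so counts of windows over the family weigh this stretch 4 times. The AP-1 motif was matched in Bcl2a1a, Bcl2a1b and Bcl2a1d, that is in 3 of the 10 family windows against 6.75% of all windows, and not in Bcl2a1c. The PU.1 core was in 6 family windows, against 23.3% of all windows.

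**Figure D3:**
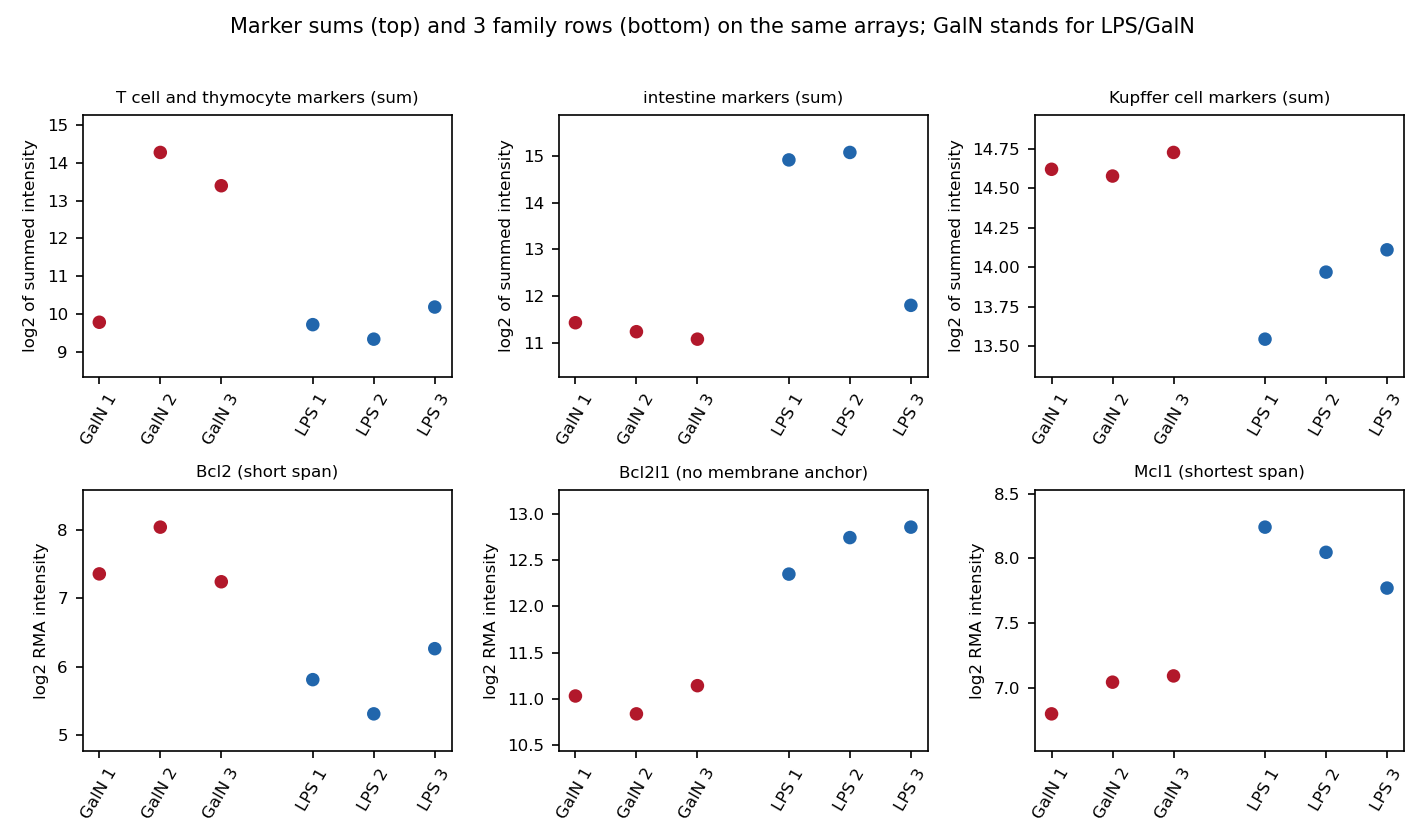
Top, log2 of the summed intensity of T cell and thymocyte, intestine and Kupffer cell markers on each array; bottom, log2 RMA intensity of the short-span Bcl2 row, the transmembrane-deleted Bcl2l1 row and the shortest-span Mcl1 row on the same arrays, LPS/GalN left of LPS. T cell markers are high on LPS/GalN arrays 2 and 3 and intestine markers on LPS arrays 1 and 2, while in the bottom panels LPS/GalN array 1 and LPS array 3 fall with their own groups; the whole-gene Bcl2 row, not drawn, overlaps between groups.

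Genes that act with the family were compared by their brightest row. Over all 37135 features counted that way, 0.652% were called higher and 3.07% lower. These features include 15162 rows with neither a symbol nor a usable name, each counted alone. Among rows above background on all 6 arrays the shares were 0.998% and 5.24%. Of 10 measured pro-apoptotic effectors and BH3-only genes, 0 were higher by limma and 1 lower, as against 1 and 1 at an unadjusted p under 0.05. That 1 was Bid, the BH3-only gene that links death receptors to mitochondria, at 9.25 ± 0.18 in LPS/GalN and 10.74 ± 0.28 in LPS (SD, n = 3 each), a difference of -1.49 ± 0.24 (SE) with a limma adjusted p of 0.0129. The list's median difference was 0.00, and Bbc3 had no row here. Of 9 other BCL2-like genes 0 passed in either direction, with 0 higher and 2 lower at an unadjusted p under 0.05 and a median of 0.00.

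Of 12 mitochondrial apoptosis genes that act after the family, 0 were higher by limma and 1 lower in LPS/GalN, also at an unadjusted p under 0.05. The 1 was Apaf1, the scaffold of the apoptosome, which had 5.71 ± 0.18 in LPS/GalN and 7.79 ± 0.23 in LPS, a difference of -2.08 ± 0.23 with a limma adjusted p of 0.00257. That is its brightest row. Of its 4 rows 2 were called lower, and the differences ran from -2.08 to 0.00. The mean of 5.71 lies near the backgrounds of 4.97 to 5.12 on the LPS/GalN arrays. The size of the Apaf1 difference is thus that of a row near the floor in LPS/GalN. The list's median was 0.14.

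Of 12 genes whose products act on the stability or activity of the anti-apoptotic proteins, 1 was higher and 1 lower. Bag3, a heat-inducible co-chaperone that binds BCL2, had 9.12 ± 0.29 in LPS/GalN and 12.16 ± 0.14 in LPS, 8.28 times as high in LPS, with a limma adjusted p of 0.000586. Siva1, whose product binds and inhibits BCL-xL, had 8.21 ± 0.41 in LPS/GalN and 6.79 ± 0.37 in LPS, a difference of 1.42 ± 0.30 with a limma adjusted p of 0.0434. The list's median was 0.08.

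Other survival genes that are induced through NF-kB were lower in 5 of 9 cases, with 0 higher by limma and a median of -1.15; at an unadjusted p under 0.05 it was 8 lower and 0 higher. Tnfaip3, the ubiquitin-editing inhibitor A20, differed by -4.62 ± 0.22 with a limma adjusted p of 0.000214. Birc3 and Birc2, the cellular inhibitor of apoptosis proteins that act at the TNF receptor, differed by -2.83 ± 0.25 and -2.62 ± 0.25, and Traf2, their adaptor, by -1.43 ± 0.22, with limma adjusted p of 0.000971, 0.00139 and 0.00936. The remaining gene called by its brightest row was Cflar, whose product c-FLIP keeps caspase-8 inactive at death receptors. Sod2 was not called by its brightest row, but 1 of its 2 rows was called lower. Its differences ran from -1.57 to -0.84. The Bcl2l1 differences were thus smaller in log2 than those of Tnfaip3, Birc3 and Birc2; these are differences of each row between groups, not levels set against each other.

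Transcription factors known to act on family genes were lower in 5 of 12 cases and higher in 1, with a median of -0.80. Rela and Nfkb1, subunits of NF-kB, differed by -2.66 ± 0.24 and -2.01 ± 0.26, and Stat5a and Stat3, factors known to act on Bcl2l1, by -1.79 ± 0.25 and -1.37 ± 0.20. Their limma adjusted p were 0.00112, 0.00436, 0.00699 and 0.00901. These are the brightest rows. Of the 4 Stat5a rows only this 1 was called, and the differences of the 4 ran from -1.79 to -0.81. Stat5b, on the same list, went the other way at 0.39 ± 0.22, with no call (limma adjusted p of 0.423). The remaining lower call was Relb, and the higher one was Sfpi1, which encodes PU.1 of myeloid and B cells, at 8.26 ± 0.12 in LPS/GalN and 7.02 ± 0.26 in LPS.

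**Figure D4:**
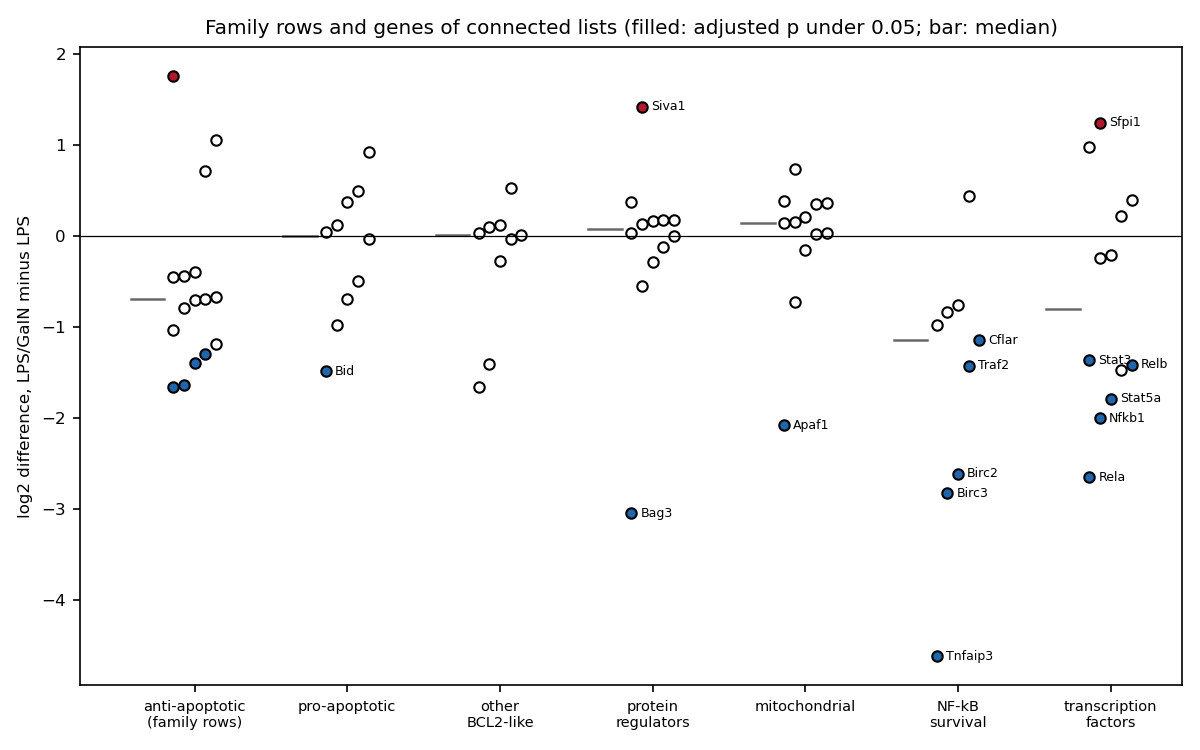
Log2 differences, LPS/GalN minus LPS, of the 16 family rows and of the brightest row of each gene in 6 connected lists. Filled points passed the test, short bars are medians, and called genes are named. The NF-kB survival and transcription factor lists have medians of -1.15 and -0.80, while the other 4 lists have medians between 0.00 and 0.14.

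Rows whose pattern over the 6 arrays was most like a called family row were sought among 25220 rows. These had a mean above background and a symbol or usable name, and all family rows were left out. For the short-span Bcl2 row they were vesicle-associated membrane protein, associated protein B and C, protein tyrosine phosphatase 4a3 and U1 small nuclear ribonucleoprotein 70 kDa polypeptide A, with Pearson r of 0.998, 0.995 and 0.995. For the transmembrane-deleted Bcl2l1 row they were scavenger receptor class A, member 5, Mgat1 and flotillin 1, with r of 0.999, 0.998 and 0.998. These r are descriptions over 6 arrays that also fall into 2 groups, and 10 and 41 of the 25220 rows exceeded 0.99 for the 2 rows.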

How the data were processed

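The authors deposited 1 table of intensity per array on a linear scale, made by RMA per the submitters' processing notes, for 44170 target rows, 44155 of them summarised from 3 probes. RMA corrects background, normalizes between arrays and joins the probes of a target; its version is not given in the sources used here. A general rise or fall of RNA would be removed by that normalization. A row of 5000 random probes gave each array's background. A deposited series table, also RMA intensity, held the 18076 rows of at least 50 on all 6 arrays and was an alternative only.

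Intensity was converted to log2 and tested with limma 3.58.1 in R 4.3.3 (lmFit and eBayes, 4.09 prior degrees of freedom), group as the only term, two-sided, Benjamini-Hochberg over all rows. Array number limits the precision. In a test on simulated data of 44170 rows, 100 rows were changed by 1.5 log2 units and 100 by 3. Of these changes 26% and 70% were recovered, with 7 false calls. Fewer rows were changed than the 289 higher and 1382 lower rows called in the data, which makes the adjusted p stricter. Each row's simulated spread was the one estimated from its own few arrays. The shares therefore do not give the power in these data. Member rows came from the descriptions, with bcl-x names joined through RefSeq synonyms; genes of lists were matched by name and chromosome. The members and lists were chosen with earlier results of these data known. Named were all member rows and, per list, up to 4 called genes of smallest p. Cflar, Sod2, Relb, Sfpi1 and Stat5b were added after their values were seen. Of the mitochondrial apoptosis list, 1 gene is not reported here. Same-numbered arrays did not deviate together (r of 0.00, 0.00 and 0.02), so no block was used. Motifs and alignments used Python 3.11.15 and Biopython 1.88.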

Additional observations from a re-analysis of the deposited data

How the results depend on the processing

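With 3 arrays a group, calls near the threshold moved with the setting. The family's 4 lower and 1 higher rows became 2 and 0 with the replicate block, where the numbers share only a label. With 1 row per gene they became 1 and 1 for the brightest row, and 1 and 0 for the mean of a gene's rows. These 2 settings keep 1 Bcl2l1 row in place of 5, and it stayed lower (limma adjusted p of 0.0305 and 0.00773). The higher rows became 2 with trend and robust fitting, quantile normalization or an offset of 16. The lower rows became 5 with the background filter, trend and robust fitting, median centring or the offset. They became 6 in the series table, which held 13 of the 16 family rows. There the Mcl1 rows of 3141 and 2226 bases passed (limma adjusted p of 0.0484 and 0.0134). Leaving out 1 array gave 2 to 4 lower and 0 to 1 higher; leaving out LPS arrays 1 and 2, or LPS/GalN arrays 2 and 3, gave 0 and 0. Over all rows 289 were higher, against 1093 with trend and robust fitting, 472 with the offset, 758 in the series table, 144 with the block, 0 and 26 without those pairs, and 53 to 804 leaving out 1 array; 1382 were lower, against 0 and 350 without those pairs and 831 to 1358 leaving out 1 array. The counts of 0 stood beside 1223 higher and 2817 lower at an unadjusted p under 0.05. The short-span Bcl2 difference lost its call at 1.23 (mean of rows), 1.76 (replicate block), 1.29 and 1.57 (without those pairs) and ran 1.51 to 1.99 leaving out 1 array. The Bcl-xL row lost its call at -1.40 (replicate block), -1.47 and -1.69 (without those pairs) and ran -1.66 to -1.26. Bcl2l2 passed at 1.05 with trend and robust fitting and in the series table, 1.11 with quantile normalization and 1.01 with the offset. The whole-gene Bcl2 row, which is near background, turned to -0.032 without LPS/GalN arrays 2 and 3. In the comparison of LPS/GalN array 1 with LPS array 3, chosen after seeing the data, it was -0.40, the short-span row 1.10, the Bcl-xL row -1.76, Bcl2a1c -0.73 and Bcl2a1d -1.22. Fewer arrays were tested where arrays were left out, and fewer rows with 1 row per gene. Otherwise the cause was not tested.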
